A study of Arabidopsis thaliana with 2 samples.

Results

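Transcripts of 5 cytosolic small heat shock protein genes of Arabidopsis thaliana were compared between wild-type plants and the double knockout KO-HsfA1d/A1e after high light. The genes AT1G53540, AT2G29500, AT1G54050, AT2G19310 and AT4G21870 were chosen among loci of the cytosolic family, each named alone by a probe set in the platform annotation. The set is not complete, since AT5G54660 and AT5G47600, listed as other cytosolic loci, are also read alone and are given further below. The 5 genes are among the 9063 genes that a probe set names alone, and 5 of the 16541 probe sets on each array read them. The wild type was ecotype Columbia, and the mutant, labelled with the same strain, lacks the heat shock factors HsfA1d and HsfA1e. Both genotypes grew on MS medium in a day of 16 h light (25°C) and 8 h dark (22°C) under 100 µE m-2 s-1. At 2 weeks of age they received 400 µE m-2 s-1 at 25°C for 30 min, and RNA of rosette leaves was hybridised. Each genotype is represented by 1 array, so there is no SD, standard error or p-value. The labels name neither the mutant alleles nor the number of plants behind an array. No array of plants kept in growth light was analysed here, and the values say nothing of how the genes respond to light.

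Small heat shock proteins are chaperones that bind unfolding proteins and keep them soluble until ATP-dependent chaperones such as HSP70 refold them. They share an alpha-crystallin domain and assemble into oligomers, and plants carry cytosolic classes next to forms targeted to plastids, mitochondria, the endoplasmic reticulum and peroxisomes. Most of their genes are nearly silent in unstressed leaves and are switched on by heat shock factors, which bind heat shock elements in the promoters. HsfA1d and HsfA1e belong to the class A1 factors, which act at the start of that response and upstream of the heat-induced factor HsfA2.

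The 2 arrays had median intensities of 334.1 (wild type) and 331.9 (mutant) and carry no detection calls. Of 7 leaf markers, 4 were read by a probe set of their own, from Rubisco activase, RCA, at 22929 and 25125 down to the light-harvesting gene LHCB4.3 at 1379 and 1468, and all 4 differed by at most 0.13 log2 units. The root marker PYK10, 1 of 3 root markers read, read 2555 in wild type and 3758 in the mutant (0.55). The guard cell marker FMA had 339.7 and 316.3, and the dividing cell marker AUR1 had 156.4 and 166.3. The part of other tissues in the results was not tested. In leaf RNA, fewer cells that express a gene and less RNA per cell cannot be told apart. None of the 13 heat shock factor genes looked up, HsfA1d and HsfA1e included, was named alone by a probe set here. Whether an unnamed probe set reads any of them was not tested. The labels could thus not be checked against the deleted genes.

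All 5 chosen cytosolic genes had the lower intensity in the mutant, but by very different amounts. A pair of class I genes kept 6.37% and 9.78% of the wild-type signal, while the other 3 genes kept between 48.1% and 68.6% of it. Differences are given as mutant minus wild type on the scale log2(intensity + 16), and folds as plain ratios of intensities. A size of 2-fold, a difference of -1 or below, was reached by 3 of the 5 genes, and 0 were 2-fold higher. Of the 2 other listed cytosolic loci read alone, AT5G54660 and AT5G47600, 1 was lower and 0 were 2-fold lower. Among the 8271 probe sets past a brightness filter, those with a mean log2 value of at least 8.44, the mutant was lower by 2-fold or more for 1.38% and by any amount for 43.7%. All 5 genes passed the filter, which uses the mean of both arrays. AT1G53540 passed it only through its wild-type value, since its mutant intensity of 317.5 is under the filter's 332.0. The median difference of the 5 genes was -1.05, beside a median of 0.03 over the 8271 probe sets.

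**Figure D1:**
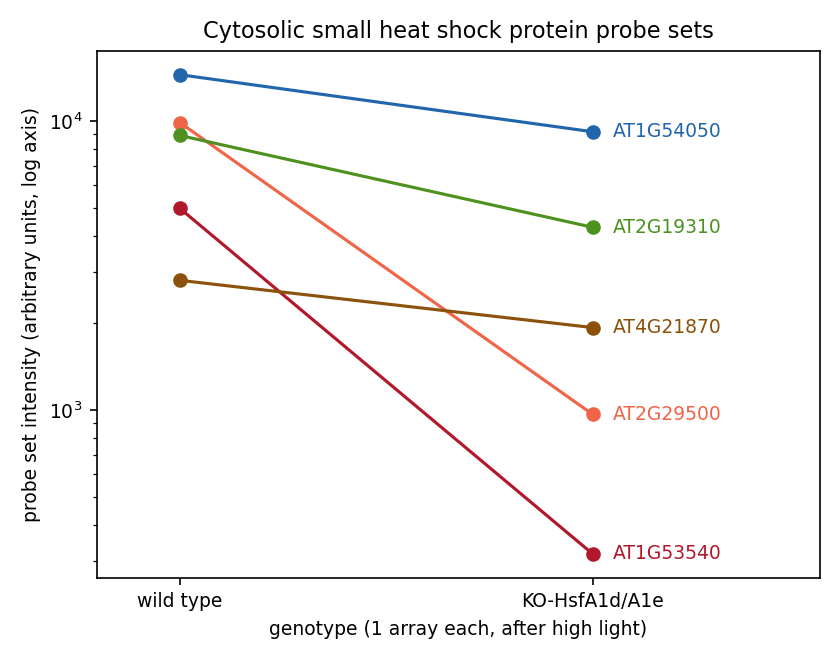
Intensity of each of the 5 cytosolic genes (log axis, arbitrary units) on the wild-type and the mutant array, 1 array each, with a line joining the values of a gene. AT1G53540 and AT2G29500 drop from 4984 to 317.5 and from 9873 to 965.2, whereas the lines of AT1G54050, AT2G19310 and AT4G21870 slope less.

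The class I proteins are the most abundant cytosolic form in heat-stressed plants. AT1G53540, which encodes a class I protein, read 4984 in wild type and 317.5 in the mutant. The wild-type signal was thus 15.7-fold higher, a difference of -3.91, and 6.37% of it was left in the mutant. Its probe set stood at percentile 96.4 of the wild-type array and at percentile 48.7 of the mutant array, close to that array's median.

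AT2G29500, also of class I, read 9873 on the wild-type array against 965.2 on the mutant array. This is a 10.2-fold lower signal in the mutant, with a difference of -3.33 and 9.78% of the signal left. The probe set moved from percentile 98.8 to percentile 77.7 of its array. These were the fourth and the seventh lowest differences of the 8271 probe sets past the filter. A size of 8-fold was reached by 2 of the 5 genes, this pair, against 0.0846% of all probe sets past the filter. AT1G53540 is past the filter only through its wild-type value, so its rank and this count are descriptions.

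AT2G19310 encodes a cytosolic small heat shock protein outside the canonical classes I and II. Its intensity was 8907 in wild type and 4284 in the mutant. The difference of -1.05 lies just past 2-fold (a ratio of 2.08), with 48.1% of the signal left. The probe set stayed among the brightest of both arrays, at percentiles 98.5 and 95.7.

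AT1G54050, the class III gene, gave the brightest signal of the 5, 14449 on the wild-type and 9172 on the mutant array. Its difference was -0.65, a ratio of 1.58, with 63.5% of the signal left. In both arrays the probe set lay near the top, at percentiles 99.7 and 98.7.

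AT4G21870, like AT2G19310 outside classes I and II, gave 2807 on the wild-type and 1927 on the mutant array. Its difference of -0.54, a ratio of 1.46, was the smallest of the 5, and 68.6% of the signal was left. AT4G21870 was the dimmest of the 5 probe sets in the wild type, and it was brighter than both class I probe sets in the mutant. Probe sets differ in how well they bind their transcript, so this order of brightness is not an order of transcript levels.

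Within the 5 chosen genes, the differences fell into a low pair and a group of 3. The step from AT2G29500 to AT2G19310 was 2.28 log2 units. The steps inside the groups were smaller, with 0.57 between the class I genes, 0.40 from AT2G19310 to AT1G54050 and 0.12 from AT1G54050 to AT4G21870. As a yardstick from the same arrays, 13 genes past the filter are read by a pair of probe sets. The differences of such a pair scattered with an SD of 0.20 and were at most 0.56 apart. This scatter leaves out the spread between plants and between RNA preparations. The steps of 0.12 and 0.40 are within the widest gap of the 13 pairs and the step of 0.57 is about as large as it, so the order inside the low pair and inside the group of 3 is not settled by these arrays.

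**Figure D2:**
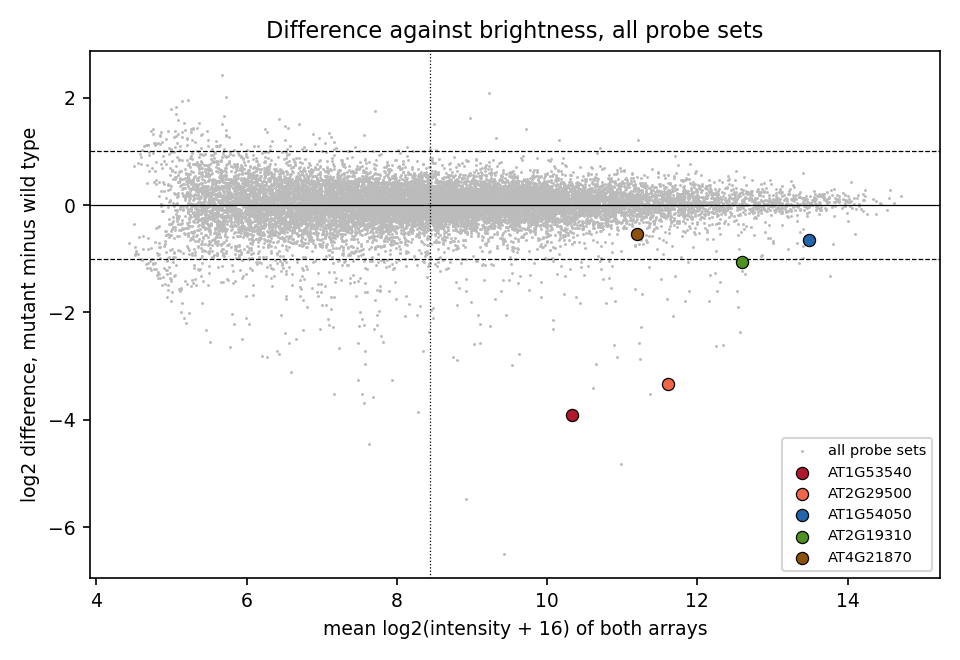
Difference between the arrays (mutant minus wild type, log2) against mean log2(intensity + 16) for all 16541 probe sets in grey, with the 5 cytosolic genes in colour, dashed lines at 2-fold and a dotted line at the brightness filter of 8.44. AT1G53540 at -3.91 and AT2G29500 at -3.33 lie far below the grey band, AT2G19310 lies on the lower dashed line, and AT1G54050 and AT4G21870 lie between that line and 0, at -0.65 and -0.54.

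Each gene was then set beside the 200 probe sets nearest to it in mean log2 value, leaving out the other 4 genes. Of the 200 around AT1G53540, 0 were as low. Their central 95% ran from -0.60 to 0.43 and the lowest was AT4G30490, with 1889 against 822.0 (wild type against mutant, -1.18). The gap between that gene and AT1G53540 was 2.72 log2 units.

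Around AT2G29500, 0 of 200 were as low, with a central 95% from -0.76 to 0.50. The lowest of them, a probe set with no gene name here, was at -2.06, which left a gap of 1.27. The lowest singly named one was AT3G10020, with 5667 against 1675 (-1.75).

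The other 3 genes had company among probe sets of their brightness. AT2G19310 had 5 of 200 as low or lower, at the lower edge of the central 95%, which ran from -0.83 to 0.47. It lay below that range here and with brightness taken on the mutant array (2 of 200), but inside it with 100 neighbours (5 at or below), with 400 (12), with brightness taken on the wild-type array (9 of 200) and with neighbours naming 1 gene (8 of 200). Of the 5, 2 name a single gene, namely Fes1A, an HSP70-associated factor, and AT5G12110, an elongation factor subunit with 10285 against 3376 (-1.60). The 200 around AT1G54050 included 7 as low or lower, and its difference of -0.65 lay inside their central 95% of -0.72 to 0.31. Their lowest was AT2G25510, with 22027 against 8800 (-1.32), and the HSP70 gene AT3G09440 was among them. So was a probe set of the small heat shock protein family, naming the class I loci AT1G59860 and AT1G07400 together (-0.99). AT4G21870 had 10 of 200 as low or lower and also lay inside the central 95%, from -0.79 to 0.50. The lowest singly named one was AT5G37670, which encodes the peroxisomal small heat shock protein, with 5818 against 963.3 (-2.57). Both calls hang on the choice of neighbours, since AT1G54050 lay below the central 95% with brightness taken on the mutant array (5 of 200 at or below) and AT4G21870 did with neighbours naming 1 gene (4 of 200).

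**Figure D3:**
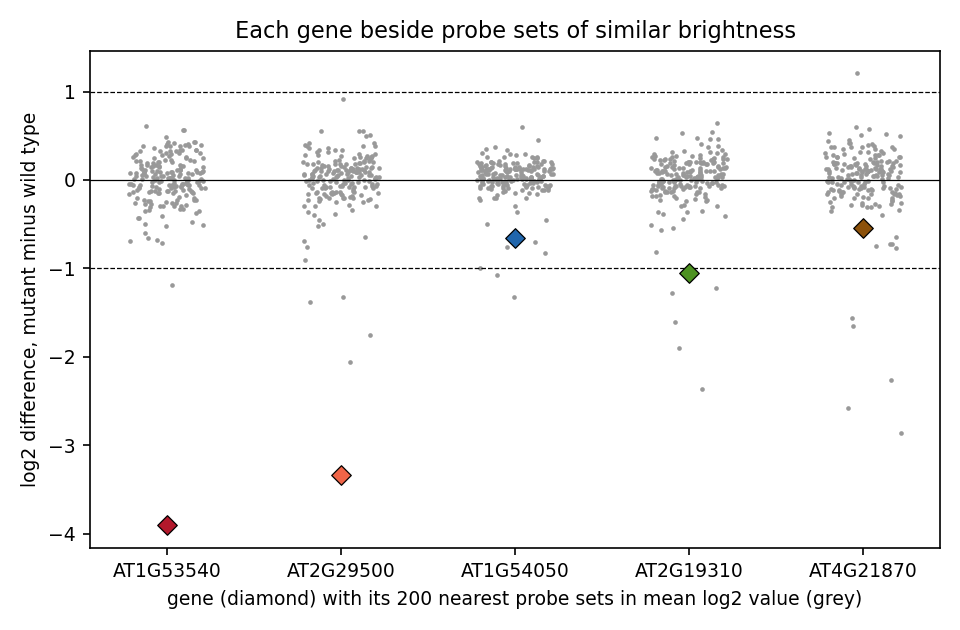
Difference between the arrays (mutant minus wild type, log2) for each cytosolic gene (diamond) and for its 200 nearest probe sets in mean log2 value (grey points, spread sideways at random), with dashed lines at 2-fold. The diamonds of AT1G53540 and AT2G29500 lie below every grey point of their column, and those of AT2G19310, AT1G54050 and AT4G21870 lie among the lowest grey points, with 5, 7 and 10 of 200 at or below them.

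One more probe set reads cytosolic class I genes, but it names AT1G59860 and AT1G07400 together and so belongs to no single gene. Its intensity was 15240 on the wild-type and 7653 on the mutant array, a difference of -0.99 with 50.2% of the signal left. That is a far smaller difference than those of AT1G53540 and AT2G29500, so class I probe sets did not all lie in the low pair. Coding sequences of class I genes are similar, and signal from one gene on the probes of another was not tested. AT1G59860 and AT1G07400 cannot be told apart on this probe set. It was described after its value was seen.

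Of the 14 other small heat shock protein loci listed, 6 were read by a probe set of their own, and 4 of these were at least 2-fold lower, beside 2.28% of all 16541 probe sets without the filter. The 4 are the organelle-targeted ones. They are AT5G51440 of mitochondria (9.19% left, -3.40), AT5G37670 of peroxisomes (16.6% left, -2.57), ATHSP22.0 of the endoplasmic reticulum (2.87% left, -4.46) and AT1G52560, another organelle form (5.51% left, -3.69), the latter pair under the brightness filter. On the mutant array ATHSP22.0 read 26.1 and AT1G52560 read 36.5, near that array's percentile 5 of 31.9, where shares depend on an unknown background. The class I pair left shares of the same range as the organelle genes, of which AT5G51440 and AT5G37670 passed the filter. The other 2 loci were listed as cytosolic, outside the 5 genes chosen here. AT5G54660 at 397.2 and 459.3 (0.20) and AT5G47600 at 101.7 and 85.1 (-0.22) were both under 2-fold. AT5G54660 passed the brightness filter and was the only 1 of the 11 measured small heat shock protein genes with the higher value in the mutant, and AT5G47600 was under the filter. The class I genes HSP17.4 and HSP18.2 and the class II genes HSP17.6II and HSP17.6A are named alone by no probe set here. They are not analysed. Of the 16541 probe sets, 7062 carry no gene name in the annotation, and whether any of those reads these genes was not tested.

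**Figure D4:**
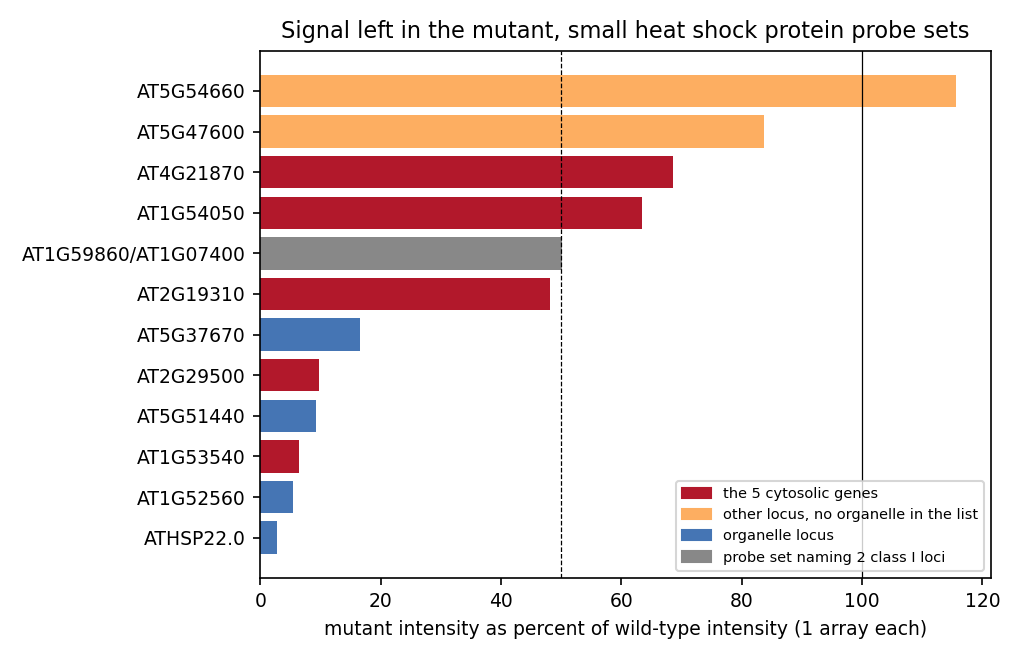
Mutant intensity as a percentage of wild-type intensity, 1 array each, for the 11 small heat shock protein genes with a probe set of their own and for the probe set that names 2 class I loci, with lines at 50% and 100%. AT1G53540 (6.37%) and AT2G29500 (9.78%) stand among the organelle genes, while AT2G19310 (48.1%), AT1G54050 (63.5%) and AT4G21870 (68.6%) stand near or above the 50% line.

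Genes listed here as HSP70 genes or co-chaperones gave a similar spread. Of 23 listed HSP70 and co-chaperone genes, 10 were read, all 10 lower in the mutant, 6 of them by 2-fold or more, and their median was -1.27. All 10 passed the brightness filter, past which 43.7% of probe sets were lower and 1.38% at least 2-fold lower. Hsp70-2, at 2072 in wild type and 247.3 in the mutant, passed it only through its wild-type value. The HSP70 genes were Hsp70-2 at -2.99, AT3G09440 at -0.82 and AT1G11660 at -0.03. The lowest in the co-chaperone list were the peptidyl-prolyl isomerase gene AT5G48570 at -2.62, Hop3, which links HSP70 and HSP90, at -1.59, and HSA32 at -1.45. Whether each listed gene works with HSP70 was not tested. All 10 thus lay above the class I pair at -3.91 and -3.33, and 6 lay below AT2G19310 at -1.05. Of the 8 listed reference genes, 4 were read, from GAPC2 at -0.01 to PEX4 at 0.39, with AT2G28390 at 0.21, all above the 5 cytosolic genes. All these values come from the same 2 arrays. None of the 10 listed HSP90 and HSP100 genes was named alone by a probe set here.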

How the data were processed

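The data are 1 Affymetrix array per genotype. Biotinylated cRNA was made from 100 ng of total RNA, per the labels' protocols. The authors deposited 1 linear intensity for each probe set on each array. How probes were summarized, corrected for background and scaled is not given in the sources used here. Arithmetic means of the arrays are 931.0 and 931.2.

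Genes were named from GEO's platform annotation and updated by Entrez identifier (gene table of TAIR10.1). Of 16541 probe sets, 9139 name 1 gene (9095 matched), 340 several and 7062 none. No coordinates are given because no build is stated.

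Values were used as deposited, since the array medians past the filter differed by 0.02 log2 units, under the limit of 0.1. The filter keeps probe sets whose mean log2(intensity + 16) is at or above the median, an intensity of 332.0. With 1 array per genotype no test was made, and precision is limited by the number of arrays. Called sizes follow a fixed fold. The genes named are the 5 chosen cytosolic genes, the lowest singly named neighbour of each, the other measured small heat shock proteins, and up to 3 genes of each other list. Others, and those next to the genes on the chromosome, were chosen after their values were seen. The genes and lists were chosen with earlier results of these data known. Python 3.11.15, pandas 2.3.3 and statsmodels 0.14.6 were used, and the steps were tested on simulated data.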

Additional observations from a re-analysis of the deposited data

How the results depend on the processing

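No paired analysis was possible because there is a single array per genotype, and for that reason no replicate could be left out. Median centring, quantile normalization, loess (span 0.3) and pseudocounts of 1 and 64 were tried, and all 25 differences of the 5 genes moved by less than 0.20 log2 units, the SD within probe-set pairs. AT1G53540 ran from -3.97 to -3.73, AT2G29500 from -3.37 to -3.27, AT2G19310 from -1.10 to -1.03, AT1G54050 from -0.70 to -0.65 and AT4G21870 from -0.58 to -0.53. The number at least 2-fold lower stayed at 3 under these settings, and became 4 at 1.5-fold and 2 at 3-fold. The background of 114 probe sets became 276 at 1.5-fold, 51 at 3-fold, 377 with no filter and 65 with the filter at percentile 75, which change what is counted by construction. Of 50 places among neighbours, 39 stayed within 1.5 times. AT1G53540 had 0 at or below it under all 10 alternatives tried, and AT2G29500 had 2 when brightness was taken on the wild-type array and 0 under the other 9. The places of AT2G19310, AT1G54050 and AT4G21870 ran from 2 to 12, 4 to 17 and 4 to 16, partly because 100 or 400 neighbours were used, and whether each lay below the central 95% of its neighbours changed with that choice. Dim probe sets are limited by an unknown background.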

Other observations

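The genes next to the 5 cytosolic genes on the chromosome were looked at after the results were known, taking 3 annotated genes on each side in the order of the TAIR10.1 table. Of these 30 genes, 8 had a probe set of their own, next to 4 of the 5 genes, and 0 of the 8 were at least 2-fold lower. With 2.28% of all probe sets at least 2-fold lower, a count of 0 in 8 does not set these neighbours apart from other genes. Directly beside AT1G53540, the gene AT1G53530 read 482.2 on the wild-type and 374.1 on the mutant array (-0.35). Directly beside AT2G29500, AT2G29510 had 426.6 and 352.9 (-0.26). Both lie far above the class I values of -3.91 and -3.33. The lowest of the 8 was MSRB9, a methionine sulfoxide reductase gene located 3 genes from AT4G21870, with 523.5 against 295.9 (-0.79), a difference larger in size than that of AT4G21870 itself (-0.54). The highest was AT4G21865 (0.17), and 4 of the 8 were under the brightness filter.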
